A study of Mus musculus with 9 samples.

Results

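The retinal response to warm white light-emitting diode (LED) light with a correlated colour temperature of 2954K was measured against mice kept in a dark environment, across all genes of the array. The comparison used 6 of the 9 arrays of the series, the 3 labelled as retina under 2954K and the 3 labelled as negative control. The remaining 3 arrays, of mice under cold white light of 7378K, entered the estimate of the spread and a direct comparison of both lights. All groups were female BALB/c mice (Babl/c in the labels), aged 10 weeks, held for 14 days in daily cycles of 12 h on, 12 h off. The LED groups were lit from above at 1000 lx. No illuminance was given for the controls, so how much light reached them is unknown. BALB/c mice are albino, and the eyes of this strain lack the pigment that screens light, which limits how far the groups stand for pigmented eyes. Each array held a pool of 3 right-eye retinas and was labelled a biological replicate, so that n = 3 pools per group. The labels do not say whether cages or dissection days were shared, and p-values measure only the spread between these pools.

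The retina answers excess light with a stress programme that has been worked out mainly in rodents. Damaged photoreceptors release signals such as the peptide endothelin 2. Cytokines of the interleukin 6 family act through the shared receptor chain gp130, JAK kinases and the transcription factor STAT3. Müller glia, the radial support cells of the retina, respond with acute-phase proteins, changed water and potassium channels and release of fibroblast growth factors, and microglia move towards the photoreceptors. Metallothioneins, which bind zinc and copper, and the genes of antigen presentation are further known parts of such responses.

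The 3 control and 3 2954K arrays were alike in scale but not in every quality measure. Pearson correlations over the 12765 genes tested lay between 0.953 and 0.980 within the control and 2954K groups. Between arrays of these groups they lay between 0.942 and 0.974, where genes are not independent replicates. Rod genes gave bright signals, with Gnat1 at 14.56, 14.69 and 14.91 in the controls and 14.98, 14.38 and 14.71 under 2954K light, so the tissue was retina by this measure. The signal of 3′ minus 5′ control probe sets for Gapdh and beta-actin, a measure of lost 5′ ends, was 0.33, 0.20 and 0.42 in controls 1 to 3 and 2.78, 0.21 and 1.05 in 2954K 1 to 3 (two-sided exact permutation p = 0.3, where 3 against 3 arrays cannot go below 0.1). It was thus high in 2954K 1, intermediate in 2954K 3 and at the control level in 2954K 2. The summed signal of 16 lens genes was 17.30 on the log2 scale in control 3 and 14.82 in 2954K 3 against 8.70 to 9.79 in the other 4 arrays. That of 16 pigment epithelium and melanocyte genes was 15.53 in control 3 and 15.24 to 15.60 under 2954K light, against 14.28 in control 1 and 13.81 in control 2. Transcripts of 15 extraocular muscle genes were high in control 3 alone, at 12.26 against 10.22 to 10.59. Erythrocyte genes and those of other leukocytes were dim on all 6 arrays, at most 6.62 and 9.10. The tissue was described as neurosensory retina without pigment epithelium, yet the pigment epithelium gene Rpe65 measured 10.34, 9.73 and 11.67 in the controls and 11.23, 11.83 and 9.92 under 2954K light. The part of these tissues in the rises and falls was not tested. Without control 3 and 2954K 3 together, 103 genes were called, and 81 of the 156 calls reported here held. That fit kept 7378K 3, whose lens sum was 12.47 against 8.88 in 7378K 1 and 8.48 in 7378K 2.

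**Figure D1:**
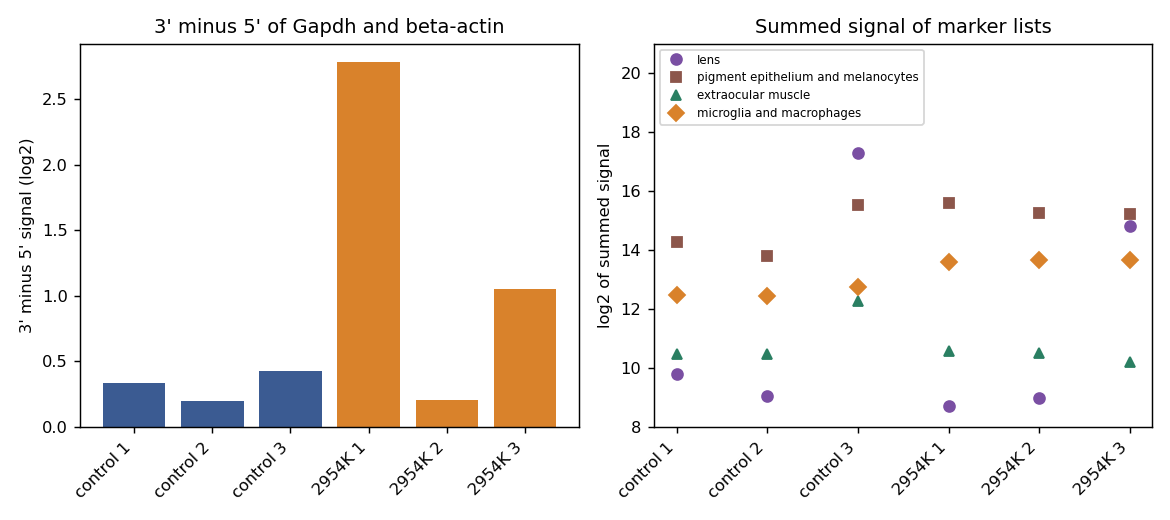
The bars on the left plot the 3′ minus 5′ signal difference of Gapdh and beta-actin (log2) in the 3 control (blue) and 3 2954K (orange) arrays. The points on the right plot the log2 of the summed signal of 4 marker lists per array, with the lens genes at 17.30 in control 3 and 14.82 in 2954K 3, and the microglial genes higher on all 3 2954K arrays than on any control.

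Under 2954K light 132 genes rose and 24 fell, and the rises were larger than the falls. Of the genes with both group means above the filter (a log2 signal of 5.91, below which genes were not tested), Edn2, Fgf2os, Cebpd, Socs3 and Pcolce rose most, and Bcl3 and C1qc, with a control mean below it, were at least 7.08-fold and 6.48-fold higher. By the fitted difference the largest fall was that of the serine protease gene Prss56. In limma, 156 of 12765 genes (1.22%) passed a Benjamini-Hochberg adjusted p under 0.05, 1.03% as rises and 0.188% as falls, and 1667 had an unadjusted p under 0.05. Of the called genes, 70 rises and 5 falls were at least 2-fold, 64 changes lay between 1.5-fold and 2-fold and 17 were below 1.5-fold. The median difference was 1.09 on the log2 scale over the risen genes and -0.71 over the fallen genes, against 0.01 over all genes tested. For each of the 156 genes the 3 arrays of one group lay wholly above or below those of the other, which was also so for 15.2% of all tested genes, 7.68% higher and 7.53% lower. Pools of whole retina were measured, so fewer cells of a type and less RNA per cell cannot be told apart.

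The 3 arrays of the 2954K group did not lie equally far from the controls. Of the 24 fallen genes, 2954K 2, the array with a control-like 3′ minus 5′ difference, was nearest to the controls for 16, 2954K 3 for 6 and 2954K 1 for 2. Of the 132 risen genes, 2954K 2 was nearest for 59, 2954K 1 for 53 and 2954K 3 for 20, and 2954K 3 was farthest for 74. Without 2954K 2, 895 genes were called, 587 rises and 308 falls, among them all 156. In that fit both remaining 2954K arrays lay above every control in the 3′ minus 5′ difference. Its part in these calls was not tested. The number of called genes was 79 without control 2, 81 without 2954K 3 and 85 without control 1, and 69 of the 156 genes were called in each of the 9 leave-one-out fits, which omit a different array each. In a fit that added the 3′ minus 5′ difference of each array as a term (the 3′ minus 5′ covariate), 87 of the 156 calls held, and 66 held both there and in all 9 leave-one-out fits.

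**Figure D2:**
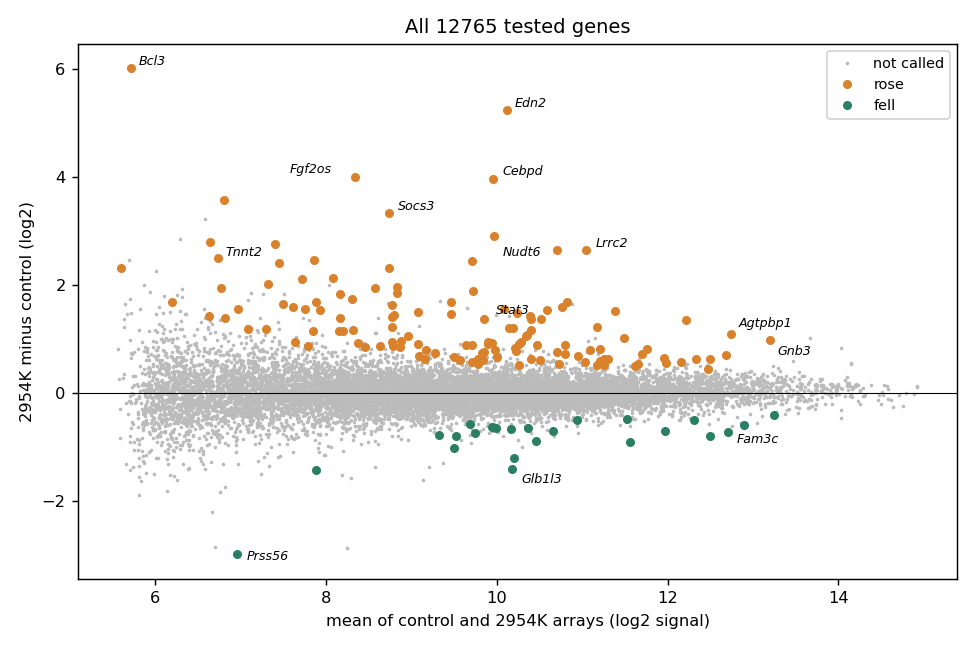
Each point is 1 of the 12765 tested genes, with the mean log2 signal of the control and 2954K arrays on the horizontal axis and the difference of 2954K minus control (log2) on the vertical axis. The 132 risen genes (orange) reach further from 0 than the 24 fallen genes (green), and called genes occur from the dim to the bright end of the signal range.

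Among the genes for secreted signals, Edn2 and Btc rose, and a transcript antisense to Fgf2 rose with its neighbour. Edn2, which encodes endothelin 2, gave log2 signals of 8.18, 6.53 and 7.81 in controls 1 to 3 and 12.60, 12.68 and 12.96 in 2954K 1 to 3. The 3 2954K arrays lay within 0.4 of each other, whereas control 2 lay well under the other controls. Edn2 rose 37.8-fold (log2 difference 5.24 ± 0.32 SE, limma adjusted p = 3.49e-06). Ednrb, a receptor for endothelins found on glia, measured 7.76, 7.73 and 8.43 in the controls and 8.35, 8.08 and 8.80 under 2954K light, a difference of 0.44 on the log2 scale (95% interval -0.13 to 1.0, limma adjusted p = 0.494). Of 6 tested genes of the endothelin system 1 rose and 0 fell, with a median difference of 0.30. Btc encodes betacellulin, a ligand of the epidermal growth factor receptor. Its signals were 8.06, 8.13 and 8.04 in controls 1 to 3 and 9.28, 9.74 and 9.42 in 2954K 1 to 3, with all controls within 0.1 of each other, and it rose 2.65-fold (log2 difference 1.41 ± 0.14 SE, limma adjusted p = 2.33e-04).

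Fgf2os and Nudt6 belong to the locus of fibroblast growth factor 2, a survival factor of photoreceptors. In the RefSeq annotation of mouse build GRCm38.p6, Fgf2os overlaps the start of Fgf2, and Nudt6 overlaps the other end of Fgf2 on the opposite strand. Fgf2os measured 6.39, 6.13 and 6.48 in controls 1 to 3 and 9.97, 10.40 and 10.67 in 2954K 1 to 3 and rose 16.1-fold (log2 difference 4.01 ± 0.18 SE, limma adjusted p = 4.52e-07). Nudt6, which also encodes a nucleotide hydrolase, measured 9.70, 9.14 and 9.28 in controls 1 to 3 and 11.89, 12.11 and 12.07 in 2954K 1 to 3 and rose 6.27-fold (log2 difference 2.65 ± 0.14 SE, limma adjusted p = 1.21e-06). In both, the lowest 2954K array lay more than 2 log2 units above the highest control. Fgf2 itself was below the intensity filter and was not tested. Its dim signals were 4.58, 3.64 and 2.28 in controls 1 to 3 and 4.38, 6.87 and 6.30 in 2954K 1 to 3, so the groups overlapped. Of the 17 tested genes of ligands, receptors and inhibitors of this family, Fgf2os was the only one called. Their median was 0.16, and the next by p were the receptor gene Fgfr1 with a difference of 0.74 on the log2 scale (95% interval 0.19 to 1.30, limma adjusted p = 0.234), the ligand gene Fgf9 (0.38) and the inhibitor genes Spred2 (0.29) and Spry4 (0.54).

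**Figure D3:**
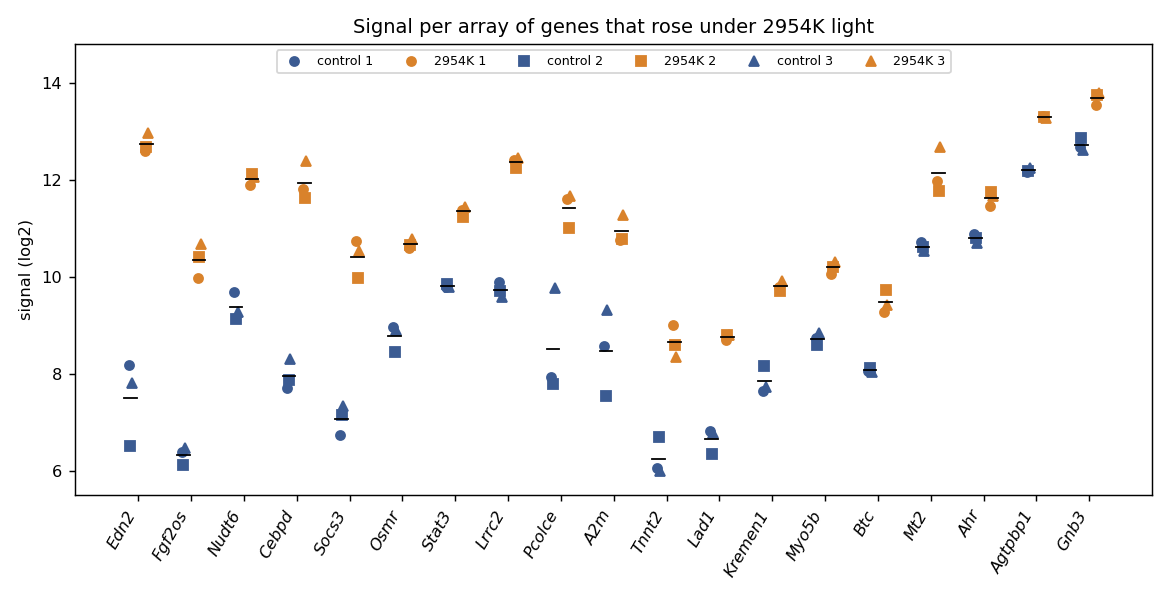
Log2 signal of 19 risen genes on each array, with controls in blue and 2954K arrays in orange, the symbol shape marking the array number and the black line the group mean. For each of these genes the 3 2954K arrays lie above the 3 controls. The controls spread most in Pcolce, A2m and Edn2.

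On the path from gp130 cytokines to STAT3, the genes of a receptor chain (Osmr), of the transcription factor (Stat3) and of its feedback inhibitor (Socs3) rose. Osmr, the receptor chain for oncostatin M that pairs with gp130, measured 8.96, 8.46 and 8.90 in controls 1 to 3 and 10.60, 10.65 and 10.78 in 2954K 1 to 3 and rose 3.73-fold (log2 difference 1.90 ± 0.14 SE, limma adjusted p = 1.83e-05). The 2 other probe sets of Osmr, both with a mean below the filter, differed by -0.99 and -0.02, and with all 3 averaged the difference was 0.30 without a call (limma adjusted p = 0.845). Stat3, the transcription factor, measured 9.80, 9.85 and 9.80 in controls 1 to 3 and 11.39, 11.24 and 11.45 in 2954K 1 to 3, and rose 2.91-fold (log2 difference 1.54 ± 0.10 SE, limma adjusted p = 3.85e-06). Its controls lay within 0.1 of each other and its 2954K arrays within 0.3. Socs3, the inhibitor that STAT3 induces, measured 6.74, 7.15 and 7.33 in controls 1 to 3 and 10.73, 9.97 and 10.53 in 2954K 1 to 3 and rose 10.1-fold (log2 difference 3.34 ± 0.21 SE, limma adjusted p = 3.85e-06), with 2954K 2 the lowest of its group. Ptpn2, a phosphatase that also acts on JAK and STAT proteins, rose 1.56-fold (log2 difference 0.64 ± 0.13 SE, limma adjusted p = 0.0387). Of 24 tested genes of gp130 cytokines and JAK-STAT signalling 3 rose and 0 fell, and the median was 0.23. Ptpn2 was not on that list. Lif, the cytokine most often linked to this response, measured 5.46, 2.76 and 5.16 in the controls and 6.86, 6.87 and 7.05 under 2954K light, with all 2954K arrays above the controls and a limma adjusted p of 0.081. Il6st, the gene of gp130, differed by 0.59 on the log2 scale (95% interval 0.26 to 0.93, limma adjusted p = 0.108), and the kinase gene Pim1 by 1.08 on the log2 scale (95% interval 0.47 to 1.68, limma adjusted p = 0.106). Ptpn2 lost its call in 8 of the 9 leave-one-out fits (limma adjusted p up to 0.197 without control 2). Ptpn2 (adjusted p = 0.076) did not pass in limma with the 3′ minus 5′ covariate.

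The promoter window of Socs3 is shown because the gene is a textbook STAT3 target. It covers the 250 bases before the start of the gene in RefSeq (GRCm38.p6, chr11:117969367-117969616, minus strand), printed 5′ to 3′ on the strand of the gene, with the only match of the STAT motif TTCNNNGAA in capitals.
Socs3: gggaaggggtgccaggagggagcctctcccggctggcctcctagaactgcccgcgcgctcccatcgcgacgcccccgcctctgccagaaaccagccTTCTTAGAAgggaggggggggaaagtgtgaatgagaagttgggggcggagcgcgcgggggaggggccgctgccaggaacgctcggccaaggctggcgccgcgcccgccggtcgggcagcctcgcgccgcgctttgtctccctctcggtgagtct
The motif, which is the same on both strands, was in the windows of 9 of 98 risen genes with a window (9.18%) and of 7.00% of 10314 tested genes.

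Among transcription factor genes, Cebpd, Bcl3 and Atf3 rose, with smaller rises of 3 further C/EBP and AP-1 genes. Cebpd, a C/EBP factor that drives acute-phase genes, measured 7.71, 7.87 and 8.32 in controls 1 to 3 and 11.80, 11.64 and 12.39 in 2954K 1 to 3 and rose 15.8-fold (log2 difference 3.98 ± 0.20 SE, limma adjusted p = 9.66e-07). Bcl3, an atypical IκB protein that binds NF-kB subunits, was dim in the controls at 4.59, 1.69 and 1.84 and reached 8.46, 8.59 and 9.13 under 2954K light, and it was at least 7.08-fold higher (limma adjusted p = 2.33e-04). Against controls below the filter value of 5.91 only this lower bound can be given. Atf3, a stress-induced factor, measured 7.90, 7.09 and 7.80 in controls 1 to 3 and 9.21, 9.38 and 10.08 in 2954K 1 to 3 and rose 3.89-fold (log2 difference 1.96 ± 0.25 SE, limma adjusted p = 0.00159). Smaller rises were found for Cebpb (2.33-fold, limma adjusted p = 0.0382), Junb (2.22-fold, adjusted p = 0.0138) and Jun (1.56-fold, adjusted p = 0.0385), the last pair being subunits of AP-1. Bcl6, a repressor that competes with STAT factors for their sites, rose 1.85-fold (limma adjusted p = 0.0127). Myd88, the adaptor of Toll-like and interleukin 1 receptors, rose 1.81-fold (limma adjusted p = 0.0249). Of 15 C/EBP and AP-1 genes 5 rose and 0 fell, with a median of 0.72. Of 19 immediate early genes Junb was the only one called, with a median of 0.12, and 0 were called in limma with the 3′ minus 5′ covariate, with the 6 arrays of control and 2954K alone or without control 3 and 2954K 3. Jun and Atf3, counted with the C/EBP and AP-1 genes, were not on the immediate early list. Of 15 genes of NF-kB subunits and inhibitors, Bcl3 alone was called, and the median was 0.44. The inhibitor genes Nfkbie and Nfkbia differed by 1.24 on the log2 scale (95% interval 0.56 to 1.93, limma adjusted p = 0.1) and by 0.44 on the log2 scale (95% interval 0.08 to 0.80, limma adjusted p = 0.29). Cebpb lost its call in 7 of the 9 leave-one-out fits (limma adjusted p up to 0.177 without control 2), Junb in 2 (up to 0.0823 without 2954K 3), Jun in 7 (up to 0.158 without 2954K 3) and Bcl6 in 2 (up to 0.0722 without control 2). Myd88 lost its call in 6 of the 9 leave-one-out fits (limma adjusted p up to 0.123 without control 1). Cebpb (adjusted p = 0.192) and Junb (adjusted p = 0.064) did not pass in limma with the 3′ minus 5′ covariate.

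A receptor of small aromatic molecules rose together with its repressor and an enzyme that it controls. These 3 genes were brought together here from the calls, and no gene list covered other targets of the receptor. Ahr, the aryl hydrocarbon receptor, measured 10.89, 10.81 and 10.70 in controls 1 to 3 and 11.45, 11.75 and 11.66 in 2954K 1 to 3 and rose 1.76-fold (log2 difference 0.82 ± 0.11 SE, limma adjusted p = 0.00165). Ahrr, the repressor that the receptor induces, measured 9.67, 9.47 and 9.19 in controls 1 to 3 and 10.37, 10.17 and 10.50 in 2954K 1 to 3 and rose 1.87-fold (log2 difference 0.91 ± 0.14 SE, limma adjusted p = 0.00535). Cyp1b1, a cytochrome P450 that the receptor induces, measured 7.27, 8.22 and 7.72 in controls 1 to 3 and 9.05, 8.94 and 8.73 in 2954K 1 to 3 and rose 2.25-fold (log2 difference 1.17 ± 0.22 SE, limma adjusted p = 0.0223), with control 2 the highest of the controls. In all 3 genes every 2954K array was above every control. The 2 other probe sets of Cyp1b1, both with a mean below the filter, differed by 0.68 and -0.57. Ahrr (adjusted p = 0.0527) did not pass in limma without control 3 and 2954K 3. Cyp1b1 lost its call in 3 of the 9 leave-one-out fits (limma adjusted p up to 0.0761 without control 1). Cyp1b1 (adjusted p = 0.103) did not pass in limma with the 3′ minus 5′ covariate.

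Among genes of metal handling, Mt1, Mt2 and Slc25a37 rose, and Tfrc and Hfe fell. Mt1 and Mt2 encode the zinc-binding and copper-binding metallothioneins and have similar sequences, so their probe sets may share signal. Mt2 measured 10.71, 10.61 and 10.54 in controls 1 to 3 and 11.98, 11.77 and 12.67 in 2954K 1 to 3 and rose 2.86-fold (log2 difference 1.52 ± 0.18 SE, limma adjusted p = 9.89e-04). Mt1 measured 11.38, 11.46 and 11.78 in controls 1 to 3 and 12.80, 12.46 and 13.44 in 2954K 1 to 3 and rose 2.57-fold (log2 difference 1.36 ± 0.20 SE, limma adjusted p = 0.00407). For both genes 2954K 3 was the highest array and 2954K 2 the lowest of the exposed group. Of 10 tested genes of metallothioneins and zinc transporters these 2 rose and 0 fell, with a median of 0.33. Slc30a1, a zinc exporter, differed by 0.41 on the log2 scale (95% interval 0.01 to 0.81, limma adjusted p = 0.373). Slc25a37, which carries iron into mitochondria, measured 9.73, 9.33 and 9.70 in controls 1 to 3 and 10.76, 10.78 and 10.83 in 2954K 1 to 3 and rose 2.30-fold (log2 difference 1.20 ± 0.12 SE, limma adjusted p = 2.67e-04). Tfrc, the transferrin receptor of iron uptake, was one of the brighter fallen genes at 12.55, 12.51 and 12.62 in controls 1 to 3 and 12.25, 12.03 and 11.89 in 2954K 1 to 3, and it fell by 0.50 ± 0.10 (SE) on the log2 scale (limma adjusted p = 0.0387). Hfe, a partner of that receptor, fell by 0.74 ± 0.15 (SE) on the log2 scale (limma adjusted p = 0.0301). Of 12 genes of iron and heme handling, 0 rose and Tfrc fell, with a median of 0.04. Slc25a37 and Hfe were not on that list. The heme oxygenase gene Hmox1 measured 5.35, 4.27 and 5.20 in the controls and 6.55, 6.10 and 6.56 under 2954K light (limma adjusted p = 0.149), and the ferroxidase gene Cp 9.93, 10.30 and 11.50 in the controls and 11.64, 11.39 and 12.36 under 2954K light (limma adjusted p = 0.124), where control 3 reached the exposed range. Tfrc lost its call in 7 of the 9 leave-one-out fits (limma adjusted p up to 0.151 without 2954K 3) and Hfe in 7 (up to 0.156 without control 1). The other probe sets of Tfrc differed by -0.10 (mean above the filter) and -0.61 (below it), and that of Hfe by -1.06. With the probe sets of each gene averaged, 0 of the 12 iron and heme genes were called. Hfe (adjusted p = 0.152) did not pass in limma with the 3′ minus 5′ covariate.

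The metallothionein promoters are shown because these genes are controlled through metal response elements. Both windows hold the 250 bases before the gene's start (RefSeq, GRCm38.p6), Mt1 at chr8:94178839-94179088, plus strand, and Mt2 at chr8:94172368-94172617, plus strand. Matches of TGCNCNC on either strand are in capitals.
Mt1: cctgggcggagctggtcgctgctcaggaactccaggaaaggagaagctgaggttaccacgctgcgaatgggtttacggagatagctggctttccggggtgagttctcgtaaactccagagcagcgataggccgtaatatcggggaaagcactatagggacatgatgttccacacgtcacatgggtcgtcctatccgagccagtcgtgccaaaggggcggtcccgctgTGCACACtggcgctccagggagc
Mt2: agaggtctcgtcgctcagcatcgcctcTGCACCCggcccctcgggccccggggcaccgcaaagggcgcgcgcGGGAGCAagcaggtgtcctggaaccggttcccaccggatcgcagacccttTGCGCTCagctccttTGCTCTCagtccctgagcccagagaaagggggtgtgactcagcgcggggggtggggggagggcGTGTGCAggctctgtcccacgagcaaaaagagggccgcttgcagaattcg
The Mt2 window held 5 matches and the Mt1 window 1. Both counts depend on the annotated starts, which were not checked, and bases outside the windows were not searched. Matches were common, in 58.2% of the tested genes with a window and in 55.1% of the 98 risen genes, so a single match does not set a gene apart.

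Genes of antigen presentation and interferon response rose in part. B2m encodes beta-2 microglobulin, which every MHC class I molecule carries. It was bright and measured 9.68, 9.71 and 10.54 in controls 1 to 3 and 11.52, 11.55 and 11.94 in 2954K 1 to 3. Control 3 lay 0.8 above the other controls, and every 2954K array lay about 1 or more above it. B2m rose 3.23-fold (log2 difference 1.69 ± 0.20 SE, limma adjusted p = 9.89e-04). The heavy chain genes H2-D1 and H2-K1, whose sequences are close enough to share signal, rose 1.86-fold and 1.66-fold (limma adjusted p = 0.00868 and 0.0199). Of 14 genes of MHC class I and the immunoproteasome 3 rose and 0 fell, with a median of 0.59. The peptide-trimming enzyme gene Erap1 and the immunoproteasome subunit gene Psmb8 differed by 0.87 on the log2 scale (95% interval 0.39 to 1.36, limma adjusted p = 0.103) and by 1.05 on the log2 scale (95% interval 0.34 to 1.77, limma adjusted p = 0.19).

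The guanylate-binding proteins, interferon-induced GTPases that are again alike in sequence, were higher together. Gbp2 measured 6.39, 5.59 and 6.97 in controls 1 to 3 and 8.11, 8.47 and 8.43 in 2954K 1 to 3 and rose 4.05-fold (log2 difference 2.02 ± 0.30 SE, limma adjusted p = 0.00501). Gbp2b rose 3.24-fold (log2 difference 1.70 ± 0.23 SE, limma adjusted p = 0.00209), and Gbp7 rose 1.82-fold (log2 difference 0.87 ± 0.17 SE, limma adjusted p = 0.0281). Bst2, which tethers viruses to the cell membrane, measured 5.58, 3.78 and 6.36 in the controls and 7.71, 8.05 and 8.39 under 2954K light, and was at least 4.42-fold higher (limma adjusted p = 0.0193). The median over 23 interferon-stimulated genes was 0.74, against 0.01 over all genes tested, and 22 of the 23 differences were above 0. Of these genes 3 rose and 0 fell. Among those without a call, Ifit1 measured 2.89, 5.03 and 6.68 in the controls and 7.61, 7.13 and 8.43 under 2954K light (limma adjusted p = 0.114), and Irf9, a component of the interferon transcription complex, 8.35, 8.26 and 8.25 in the controls and 8.67, 9.48 and 9.14 under 2954K light (adjusted p = 0.0759). The lysosomal cysteine protease gene Ctss measured 10.03, 9.74 and 10.14 in controls 1 to 3 and 11.77, 11.63 and 11.29 in 2954K 1 to 3 and rose 3.01-fold (log2 difference 1.59 ± 0.14 SE, limma adjusted p = 1.00e-04), and Ctsc, which activates serine proteases, rose 1.70-fold (log2 difference 0.77 ± 0.15 SE, limma adjusted p = 0.0289). Of 25 lysosomal genes these 2 rose, and the median was 0.21. H2-D1 lost its call in 2 of the 9 leave-one-out fits (limma adjusted p up to 0.06 without control 2), H2-K1 in 3 (up to 0.0995 without control 2), Gbp7 in 5 (up to 0.134 without control 2) and Bst2 in 2 (up to 0.111 without 2954K 3). Ctsc lost its call in 7 of the 9 leave-one-out fits (limma adjusted p up to 0.142 without control 2). Gbp7 (adjusted p = 0.108), Bst2 (adjusted p = 0.0766) and Ctsc (adjusted p = 0.108) did not pass in limma with the 3′ minus 5′ covariate.

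The interferon response motif, which is GAAA repeated after any 2 bases, was more frequent before the starts of risen genes than before those of all tested genes. It was found, on either strand, in the windows of 10 of 98 risen genes (10.2%), 0 of 18 fallen genes and 2.92% of the 10314 tested genes. The 10 genes were Aif1, B2m, Bst2, Bub1b, Chl1, Ctss, Gbp2, Gbp2b, Gbp7 and Myd88. The NF-kB motif, GGG and TTTCC with any 2 bases between them, was in 4 of the 98 (4.08%, against 1.63%), the motif TTGCNNAA of C/EBP in 9.18% against 8.78%, and the motif TGANTCA of AP-1 in 6.12% against 5.20%. These shares are descriptions of 1 kind of window and carry no test. The windows of 4 genes are printed with the interferon motif in capitals, for B2m (chr2:122147437-122147686, plus strand), Bst2 (chr8:71537473-71537722, minus strand), Gbp2 (chr3:142620413-142620662, plus strand) and Gbp7 (chr3:142530086-142530335, plus strand), all from RefSeq for GRCm38.p6 and read 5′ to 3′ towards the start of the gene.
B2m: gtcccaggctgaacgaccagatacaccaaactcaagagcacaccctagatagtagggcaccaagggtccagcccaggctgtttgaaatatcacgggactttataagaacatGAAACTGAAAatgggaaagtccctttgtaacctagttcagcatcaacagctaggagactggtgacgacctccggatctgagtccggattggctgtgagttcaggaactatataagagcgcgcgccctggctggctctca
Bst2: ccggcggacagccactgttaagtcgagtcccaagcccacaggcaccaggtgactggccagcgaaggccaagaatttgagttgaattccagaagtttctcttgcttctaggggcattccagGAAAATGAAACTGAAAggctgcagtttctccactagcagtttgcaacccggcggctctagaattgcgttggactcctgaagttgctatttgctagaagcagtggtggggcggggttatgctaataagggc
Gbp2: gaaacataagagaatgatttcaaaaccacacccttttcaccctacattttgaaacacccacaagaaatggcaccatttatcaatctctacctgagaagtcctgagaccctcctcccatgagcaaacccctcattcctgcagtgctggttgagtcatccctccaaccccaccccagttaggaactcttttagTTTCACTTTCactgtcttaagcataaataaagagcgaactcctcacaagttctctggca
Gbp7: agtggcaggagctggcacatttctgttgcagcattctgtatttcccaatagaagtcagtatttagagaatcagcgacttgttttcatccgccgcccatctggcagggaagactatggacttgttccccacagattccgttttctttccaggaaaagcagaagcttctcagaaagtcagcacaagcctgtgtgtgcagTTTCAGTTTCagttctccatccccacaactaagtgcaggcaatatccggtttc
In Bst2 the capitals join 2 overlapping matches, and in Gbp2 and Gbp7 the motif reads on the opposite strand.

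Microglial and complement genes made up a further share of the rises. Of 19 tested genes of microglia and macrophages 10 rose and 0 fell, with a median of 1.39, and the summed signal of 23 such genes on the array was 12.45 to 12.75 in the controls and 13.59 to 13.67 under 2954K light. C1qa measured 7.71, 7.07 and 7.96 in controls 1 to 3 and 9.43, 10.27 and 9.99 in 2954K 1 to 3, and C1qb 7.39, 6.56 and 7.09 in controls 1 to 3 and 8.86, 9.28 and 9.30 in 2954K 1 to 3, both chains of the complement initiator C1q. Csf1r, the growth factor receptor of these cells, measured 9.60, 9.39 and 10.15 in controls 1 to 3 and 11.22, 10.81 and 11.21 in 2954K 1 to 3 and rose 2.58-fold (log2 difference 1.37 ± 0.18 SE, limma adjusted p = 0.00201). The lysozyme genes Lyz1 and Lyz2, which share sequence, rose 5.53-fold and 2.97-fold (limma adjusted p = 9.17e-04 and 0.0161). Mpeg1, a pore-forming protein of phagocytes, was at least 4.24-fold higher (limma adjusted p = 0.00558), and Vsir, an immune checkpoint receptor, at least 3.60-fold (adjusted p = 0.0185). C1qc and Aif1 were at least 6.48-fold and 2.21-fold higher (limma adjusted p = 0.0335 and 0.0401). Tyrobp, Ly86, Clec7a and Cd52, which encode surface and signalling proteins of these cells, rose 2.61-fold, 3.57-fold, 2.70-fold and 2.63-fold (limma adjusted p = 0.00261, 2.33e-04, 0.0449 and 0.044). Cfi, a protease that inactivates complement, measured 7.12, 6.65 and 6.68 in controls 1 to 3 and 8.53, 8.09 and 8.61 in 2954K 1 to 3 and rose 3.01-fold (log2 difference 1.59 ± 0.22 SE, limma adjusted p = 0.00226). The defining microglial gene Cx3cr1 measured 6.82, 7.17 and 7.06 in the controls and 8.15, 7.47 and 7.47 under 2954K light (limma adjusted p = 0.298). C1qc lost its call in 6 of the 9 leave-one-out fits (limma adjusted p up to 0.136 without 2954K 3), Aif1 in 7 (up to 0.159 without control 2), Vsir in 4 (up to 0.0839 without control 1) and Clec7a in 7 (up to 0.177 without control 2). Cd52 lost its call in 7 of the 9 leave-one-out fits (limma adjusted p up to 0.194 without 2954K 3) and Lyz2 in 1 (up to 0.0951 without 2954K 3). C1qc (adjusted p = 0.152), Aif1 (adjusted p = 0.193), Vsir (adjusted p = 0.104), Clec7a (adjusted p = 0.147) and Cd52 (adjusted p = 0.156) did not pass in limma with the 3′ minus 5′ covariate.

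Several secreted proteins of the extracellular space were among the largest rises. Pcolce, which enhances the processing of procollagen, measured 7.95, 7.80 and 9.77 in controls 1 to 3 and 11.60, 11.01 and 11.66 in 2954K 1 to 3 and rose 7.54-fold (log2 difference 2.91 ± 0.40 SE, limma adjusted p = 0.00231). Its control 3 lay almost 2 above the other controls, on the array with high lens, muscle and pigment cell signal, and below all exposed arrays. A2m, a protease inhibitor of the acute phase, measured 8.58, 7.55 and 9.31 in controls 1 to 3 and 10.76, 10.79 and 11.27 in 2954K 1 to 3 and rose 5.48-fold (log2 difference 2.46 ± 0.33 SE, limma adjusted p = 0.00217). Serpina3n, a serine protease inhibitor, measured 5.07, 5.93 and 7.05 in controls 1 to 3 and 8.66, 8.51 and 9.19 in 2954K 1 to 3 and rose 6.80-fold (log2 difference 2.76 ± 0.42 SE, limma adjusted p = 0.00533), and was also highest of the controls on control 3. Tgm2, a transglutaminase that cross-links matrix proteins, measured 7.32, 7.11 and 7.86 in controls 1 to 3 and 9.02, 8.67 and 9.87 in 2954K 1 to 3 and rose 3.37-fold (log2 difference 1.75 ± 0.28 SE, limma adjusted p = 0.00795). Rnase4, a secreted ribonuclease, measured 8.02, 7.52 and 8.18 in controls 1 to 3 and 9.58, 9.71 and 9.99 in 2954K 1 to 3 and rose 3.61-fold (log2 difference 1.85 ± 0.18 SE, limma adjusted p = 2.02e-04). Of 33 tested genes of extracellular matrix and basement membrane 0 rose and 2 fell, with a median of 0.06, so the named rises lay outside that list. Tgm2 (adjusted p = 0.0543) did not pass in limma with the 6 arrays of control and 2954K alone. Tgm2 (adjusted p = 0.0557) did not pass in limma with the 3′ minus 5′ covariate.

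Lad1, Kremen1 and Antxr2 were among several called rises that encode membrane or adhesion proteins, brought together here from the calls. Of 13 chemokine and adhesion genes 0 were called. Lad1 encodes ladinin, a protein of anchoring filaments, and measured 6.83, 6.36 and 6.78 in controls 1 to 3 and 8.71, 8.80 and 8.81 in 2954K 1 to 3, and it rose 4.33-fold (log2 difference 2.11 ± 0.18 SE, limma adjusted p = 8.61e-05). Kremen1, a receptor for the Wnt inhibitor Dickkopf, measured 7.65, 8.16 and 7.74 in controls 1 to 3 and 9.79, 9.72 and 9.92 in 2954K 1 to 3 and rose 3.90-fold (log2 difference 1.96 ± 0.21 SE, limma adjusted p = 2.84e-04). Of 24 Wnt signalling genes 0 were called, with a median of 0.10. Antxr2, a receptor of collagen and anthrax toxin, rose 2.79-fold (log2 difference 1.48 ± 0.20 SE, limma adjusted p = 0.00201). Prtg, the immunoglobulin superfamily protein protogenin, measured 8.13, 7.93 and 8.16 in controls 1 to 3 and 9.34, 9.41 and 9.83 in 2954K 1 to 3 and rose 2.74-fold (log2 difference 1.46 ± 0.15 SE, limma adjusted p = 2.33e-04). Chl1, a neural adhesion molecule, rose 1.82-fold (log2 difference 0.87 ± 0.13 SE, limma adjusted p = 0.00533). Plxna2, a receptor of semaphorins, rose 1.49-fold (log2 difference 0.58 ± 0.11 SE, limma adjusted p = 0.0223). The tetraspan junction genes Marveld1 and Marveld3 rose 2.21-fold and 1.45-fold (limma adjusted p = 0.00672 and 0.0293), and the scavenger receptor gene Scara3 1.86-fold (adjusted p = 0.00833). Marveld1 (adjusted p = 0.062) did not pass in limma without control 3 and 2954K 3. Chl1 (adjusted p = 0.054) and Marveld1 (adjusted p = 0.0528) did not pass in limma with the 6 arrays of control and 2954K alone. Plxna2 lost its call in 5 of the 9 leave-one-out fits (limma adjusted p up to 0.128 without control 2), Marveld3 in 8 (up to 0.144 without control 1) and Scara3 in 1 (up to 0.0518 without control 2). Marveld3 (adjusted p = 0.0921) did not pass in limma with the 3′ minus 5′ covariate.

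In Müller glia, a water channel and a hormone-binding protein rose while most other characteristic genes were not called. Aqp4, the water channel of glial endfeet, measured 11.84, 11.59 and 11.67 in controls 1 to 3 and 12.37, 12.33 and 12.10 in 2954K 1 to 3 and rose 1.48-fold (log2 difference 0.57 ± 0.11 SE, limma adjusted p = 0.0256). Crym, which binds thyroid hormone, measured 10.74, 10.65 and 10.29 in controls 1 to 3 and 11.65, 11.83 and 11.86 in 2954K 1 to 3 and rose 2.33-fold (log2 difference 1.22 ± 0.13 SE, limma adjusted p = 2.84e-04). Of 21 tested Müller glia genes these 2 rose and 0 fell, with a median of 0.27. The factor gene Sox2 measured 10.59, 10.51 and 10.53 in the controls and 10.95, 11.21 and 10.94 under 2954K light (limma adjusted p = 0.066), with all exposed arrays above the controls. Slc14a1, a urea transporter, measured 8.32, 8.49 and 8.49 in controls 1 to 3 and 9.04, 9.23 and 9.60 in 2954K 1 to 3 and rose 1.81-fold (log2 difference 0.86 ± 0.16 SE, limma adjusted p = 0.0223). Pdpn, the membrane protein podoplanin, measured 11.22, 11.04 and 11.80 in controls 1 to 3 and 12.31, 12.01 and 12.19 in 2954K 1 to 3 and rose 1.76-fold (log2 difference 0.81 ± 0.16 SE, limma adjusted p = 0.0335), with control 3 close to the exposed arrays. Cd44, the hyaluronan receptor found on reactive glia, measured 9.93, 9.80 and 9.67 in controls 1 to 3 and 10.63, 10.92 and 10.62 in 2954K 1 to 3 and rose 1.89-fold (log2 difference 0.92 ± 0.12 SE, limma adjusted p = 0.00159). Of 22 tested genes of reactive gliosis 6 rose (Serpina3n, A2m, Cd44, Osmr, Tgm2 and Gbp2) and 0 fell, with a median of 1.0, and Gfap measured 6.15, 7.25 and 6.91 in the controls and 7.85, 7.69 and 7.75 under 2954K light (limma adjusted p = 0.127). Aqp4 lost its call in 5 of the 9 leave-one-out fits (limma adjusted p up to 0.159 without control 2), Slc14a1 in 3 (up to 0.111 without control 1) and Pdpn in 7 (up to 0.159 without control 2). Aqp4 (adjusted p = 0.0879) and Pdpn (adjusted p = 0.166) did not pass in limma with the 3′ minus 5′ covariate.

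Notch and Hippo pathway genes were represented by 3 rises. Hey2, a repressor induced by Notch, measured 8.62, 8.53 and 8.15 in controls 1 to 3 and 9.26, 9.66 and 9.55 in 2954K 1 to 3 and rose 2.08-fold (log2 difference 1.06 ± 0.17 SE, limma adjusted p = 0.00703). Of 18 Notch genes it was the only one called, and its relative Heyl lay lower, at 6.45, 6.71 and 6.82 in the controls and 5.26, 5.49 and 6.30 under 2954K light (limma adjusted p = 0.314). Wwtr1, the co-activator TAZ that the Hippo pathway restrains, measured 9.38, 9.45 and 9.58 in controls 1 to 3 and 10.23, 10.45 and 10.55 in 2954K 1 to 3 and rose 1.92-fold (log2 difference 0.94 ± 0.12 SE, limma adjusted p = 0.00201). Ccn1, a matrix protein gene that TAZ and YAP induce, measured 6.49, 6.44 and 6.55 in controls 1 to 3 and 7.64, 7.88 and 7.55 in 2954K 1 to 3 and rose 2.29-fold (log2 difference 1.20 ± 0.23 SE, limma adjusted p = 0.0269). Of 15 genes of that pathway these 2 rose and 0 fell, with a median of 0.31, and the related gene Ccn2 differed by 0.62 on the log2 scale (95% interval 0.15 to 1.09, limma adjusted p = 0.248). Hey2 (adjusted p = 0.0712) did not pass in limma without control 3 and 2954K 3. Ccn1 lost its call in 5 of the 9 leave-one-out fits (limma adjusted p up to 0.107 without control 2). Ccn1 (adjusted p = 0.0879) did not pass in limma with the 3′ minus 5′ covariate.

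Agtpbp1, Myo5b, Myo10 and Mtcl1 were called rises among genes that act on microtubules or as motors, brought together here from the calls. In the lists nearest to them most genes were not called. Of 21 genes of cilia and transport 1 was called, with a median of -0.04, and of 27 genes of cytoskeleton and cell adhesion 2 rose (Cd44 and Msn), with a median of 0.36. Agtpbp1, which removes glutamate residues from tubulin and whose loss causes degeneration of photoreceptors and Purkinje cells in mice, measured 12.17, 12.19 and 12.24 in controls 1 to 3 and 13.31, 13.30 and 13.27 in 2954K 1 to 3. The arrays of each group lay within 0.1 of each other, and it rose 2.14-fold (log2 difference 1.10 ± 0.09 SE, limma adjusted p = 4.52e-05). Myo5b and Myo10, unconventional myosins of vesicle transport and filopodia, measured 8.75, 8.60 and 8.84 in the controls and 10.06, 10.21 and 10.31 under 2954K light and 9.70, 9.54 and 9.79 in the controls and 10.90, 11.37 and 11.03 under 2954K light. Myo5b rose 2.77-fold (log2 difference 1.47 ± 0.11 SE, limma adjusted p = 3.54e-05), and Myo10 rose 2.68-fold (log2 difference 1.42 ± 0.15 SE, limma adjusted p = 2.84e-04). Mtcl1, a microtubule cross-linking protein, was very even at 12.26, 12.21 and 12.28 in controls 1 to 3 and 12.70, 12.66 and 12.71 in 2954K 1 to 3, and it rose 1.36-fold (log2 difference 0.44 ± 0.08 SE, limma adjusted p = 0.0195). Tubb2b, a beta tubulin, rose 1.68-fold (limma adjusted p = 0.0127), and Gas2l1, a linker of actin and microtubules, 1.88-fold (adjusted p = 0.0281). The actin-binding genes Msn and Cotl1 rose 1.78-fold and 1.66-fold (limma adjusted p = 0.0241 and 0.0185).

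Ift57, a subunit of intraflagellar transport, measured 9.48, 9.31 and 9.49 in controls 1 to 3 and 10.32, 10.19 and 10.60 in 2954K 1 to 3 and rose 1.92-fold (log2 difference 0.94 ± 0.13 SE, limma adjusted p = 0.00217). It was the called gene of the cilia and transport list. Bbs9 and Cc2d2a, genes of the BBSome and the transition zone, were lower without a call, with differences of -0.60 on the log2 scale (95% interval -0.99 to -0.21, limma adjusted p = 0.166) and of -0.35 on the log2 scale (95% interval -0.60 to -0.11, limma adjusted p = 0.194). Rfx2, a transcription factor of ciliary genes, measured 7.07, 6.64 and 6.31 in controls 1 to 3 and 8.07, 8.45 and 8.46 in 2954K 1 to 3 and rose 3.15-fold (log2 difference 1.65 ± 0.22 SE, limma adjusted p = 0.00215). Cetn4, a centrin of basal bodies, rose 1.75-fold (log2 difference 0.80 ± 0.10 SE, limma adjusted p = 0.00166). Mlf1, the myeloid leukemia factor, measured 9.29, 9.35 and 8.86 in controls 1 to 3 and 10.23, 11.08 and 10.32 in 2954K 1 to 3 and rose 2.60-fold (log2 difference 1.38 ± 0.21 SE, limma adjusted p = 0.00522), with 2954K 2 the highest. Tubb2b (adjusted p = 0.0593) did not pass in limma without control 3 and 2954K 3. Tubb2b (adjusted p = 0.0854) did not pass in limma with the 6 arrays of control and 2954K alone. Mtcl1 lost its call in 4 of the 9 leave-one-out fits (limma adjusted p up to 0.134 without control 2), Gas2l1 in 5 (up to 0.141 without control 1), Msn in 7 (up to 0.131 without control 2) and Cotl1 in 3 (up to 0.0962 without control 2). Tubb2b (adjusted p = 0.0647), Gas2l1 (adjusted p = 0.152), Msn (adjusted p = 0.112) and Cotl1 (adjusted p = 0.0668) did not pass in limma with the 3′ minus 5′ covariate.

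Some large rises belonged to genes better known from other tissues. Lrrc2, a leucine-rich repeat protein studied in heart muscle, measured 9.89, 9.70 and 9.59 in controls 1 to 3 and 12.42, 12.25 and 12.45 in 2954K 1 to 3, and it rose 6.26-fold (log2 difference 2.65 ± 0.15 SE, limma adjusted p = 1.63e-06). Tnnt2, cardiac troponin T, measured 6.06, 6.69 and 6.0 in controls 1 to 3 and 9.01, 8.60 and 8.36 in 2954K 1 to 3 and rose 5.30-fold (log2 difference 2.41 ± 0.23 SE, limma adjusted p = 1.83e-04). Sox30, a transcription factor of the testis, measured 9.0, 8.38 and 8.47 in controls 1 to 3 and 10.21, 10.58 and 10.14 in 2954K 1 to 3 and rose 3.24-fold (log2 difference 1.70 ± 0.17 SE, limma adjusted p = 2.33e-04). Pbxip1, which binds PBX homeodomain factors, measured 9.44, 9.12 and 9.34 in controls 1 to 3 and 10.86, 10.71 and 11.04 in 2954K 1 to 3 and rose 2.96-fold (log2 difference 1.57 ± 0.13 SE, limma adjusted p = 4.31e-05). Caprin2, an RNA-binding protein, measured 9.92, 9.84 and 9.71 in controls 1 to 3 and 10.96, 10.90 and 11.10 in 2954K 1 to 3 and rose 2.24-fold (log2 difference 1.16 ± 0.11 SE, limma adjusted p = 1.24e-04). Klhl29, a kelch-like protein, rose 2.30-fold (log2 difference 1.20 ± 0.17 SE, limma adjusted p = 0.00351). All 6 genes kept their calls in each of the 9 leave-one-out fits. Klhl29 (adjusted p = 0.062) did not pass in limma without control 3 and 2954K 3.

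Genes of cell cycle checkpoints and cell death changed one by one. Bub1b, a kinase of the spindle checkpoint, measured 8.36, 8.07 and 8.55 in controls 1 to 3 and 9.81, 9.31 and 10.35 in 2954K 1 to 3 and rose 2.83-fold (log2 difference 1.5 ± 0.24 SE, limma adjusted p = 0.00758). Of 15 proliferation genes 0 were called, with a median of -0.02. E2f6, a repressor of the E2F family, measured 9.64, 9.79 and 10.01 in controls 1 to 3 and 10.79, 10.72 and 11.18 in 2954K 1 to 3 and rose 2.12-fold (log2 difference 1.09 ± 0.14 SE, limma adjusted p = 0.00201). Gadd45b, a stress-induced activator of kinases, measured 7.73, 8.01 and 8.13 in controls 1 to 3 and 9.54, 9.17 and 10.08 in 2954K 1 to 3 and rose 3.12-fold (log2 difference 1.64 ± 0.22 SE, limma adjusted p = 0.00201), while its relative Gadd45a lay lower at 10.89, 10.76 and 10.80 in the controls and 10.25, 10.52 and 10.35 under 2954K light (limma adjusted p = 0.0938). Bik, a pro-apoptotic BH3-only protein, measured 3.8, 5.01 and 4.52 in the controls and 6.59, 6.57 and 7.12 under 2954K light, and was at least 1.81-fold higher (limma adjusted p = 0.0126). Rnf144b, a ubiquitin ligase of the p53 response, measured 11.04, 10.89 and 10.98 in controls 1 to 3 and 12.10, 12.02 and 11.86 in 2954K 1 to 3 and rose 2.03-fold (log2 difference 1.02 ± 0.09 SE, limma adjusted p = 1.24e-04). Of 19 genes of apoptosis, necroptosis and inflammasome Bik alone was called, with a median of 0.17, and Bcl2 differed by -0.62 on the log2 scale (95% interval -1.08 to -0.17, limma adjusted p = 0.22). Spidr, a scaffold of DNA repair, rose 1.83-fold (log2 difference 0.87 ± 0.19 SE, limma adjusted p = 0.0465). Bik lost its call in 1 of the 9 leave-one-out fits (limma adjusted p up to 0.0848 without 2954K 3) and Spidr in 8 (up to 0.185 without control 1). Bub1b (adjusted p = 0.0627), Bik (adjusted p = 0.0627) and Spidr (adjusted p = 0.164) did not pass in limma with the 3′ minus 5′ covariate.

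Among genes of phototransduction, channels and receptors, Gnb3 and Grik3 rose and Kcnj14 fell, and rod genes were not called. Gnb3, the beta subunit of cone transducin, was bright and measured 12.67, 12.85 and 12.62 in controls 1 to 3 and 13.54, 13.74 and 13.79 in 2954K 1 to 3, and it rose 1.97-fold (log2 difference 0.98 ± 0.10 SE, limma adjusted p = 2.33e-04). Kcnj14, an inward rectifier potassium channel gene, measured 13.12, 13.17 and 13.29 in controls 1 to 3 and 12.42, 12.75 and 12.64 in 2954K 1 to 3 and fell by 0.59 ± 0.10 (SE) on the log2 scale (limma adjusted p = 0.0139). Grik3, a subunit of kainate glutamate receptors, measured 8.01, 7.85 and 7.01 in controls 1 to 3 and 8.84, 8.72 and 8.74 in 2954K 1 to 3 and rose 2.21-fold (log2 difference 1.15 ± 0.23 SE, limma adjusted p = 0.0312), where control 3 was the low array. Of 12 cone genes 1 rose and 0 fell, with a median of -0.01. The cone opsin gene Opn1mw measured 10.79, 10.97 and 10.76 in the controls and 10.18, 10.58 and 9.92 under 2954K light, a difference of -0.61 on the log2 scale (95% interval -0.95 to -0.28, limma adjusted p = 0.1). Arr3, cone arrestin, measured 12.04, 12.23 and 11.66 in the controls and 11.03, 12.21 and 11.17 under 2954K light, so that 2954K 2 lay with the controls and the other 2 exposed arrays below them. Kcnj14 lost its call in 2 of the 9 leave-one-out fits (limma adjusted p up to 0.0718 without control 2) and Grik3 in 6 (up to 0.113 without 2954K 3). Grik3 (adjusted p = 0.125) did not pass in limma with the 3′ minus 5′ covariate.

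Of 27 rod genes 0 were called, 24 differences were below 0 and the median was -0.14, against 0.01 over all genes tested. The channel subunit gene Cnga1 measured 13.54, 13.58 and 13.54 in the controls and 13.15, 13.29 and 13.27 under 2954K light, a difference of -0.32 on the log2 scale (95% interval -0.50 to -0.13, limma adjusted p = 0.127). Rom1, a structural protein of outer segment discs, measured 14.11, 14.22 and 14.23 in the controls and 13.87, 13.88 and 13.86 under 2954K light, a difference of -0.32 on the log2 scale (95% interval -0.52 to -0.12, limma adjusted p = 0.143). In both the groups did not overlap, which held for 7 of the 27 genes in the lower direction and for 7.53% of all genes tested. Gnb5 and Rgs9bp, which belong to the complex that ends the rod response, differed by -0.35 on the log2 scale (95% interval -0.57 to -0.12, limma adjusted p = 0.165) and by -0.38 on the log2 scale (95% interval -0.63 to -0.13, limma adjusted p = 0.181). Without 2954K 2 the limma adjusted p was 0.0359 for Cnga1 and 0.0471 for Gnb5, and among cone genes 0.0069 for Opn1mw, 0.00725 for Arr3 and 0.0131 for the rise of Pde6h, so that these 5 passed on the remaining arrays. The 2954K arrays left in that fit had 3′ minus 5′ differences of 2.78 and 1.05, above every control. The part of this measure was not tested. Signals above about 14 approach the top of the scale, where differences can be compressed. Of 15 photoreceptor transcription factors 0 were called, Rax being nearest at 9.64, 9.54 and 9.76 in the controls and 10.16, 10.04 and 10.15 under 2954K light (limma adjusted p = 0.0665).

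The 24 falls were modest apart from a few. Prss56, a serine protease of Müller glia in which variants alter eye size, measured 8.37, 8.37 and 8.63 in controls 1 to 3 and 4.74, 5.71 and 5.96 in 2954K 1 to 3 and was at least 5.86-fold lower (limma adjusted p = 0.00474), since its exposed mean lay below the filter. Of 10 tested genes of eye size and growth it was the only one called. Dleu7 measured 8.62, 8.81 and 8.36 in controls 1 to 3 and 7.31, 7.53 and 6.66 in 2954K 1 to 3 and fell by 1.43 ± 0.26 (SE) on the log2 scale (limma adjusted p = 0.0208). Glb1l3, a relative of beta-galactosidase, measured 10.87, 10.77 and 11.01 in controls 1 to 3 and 8.97, 10.16 and 9.31 in 2954K 1 to 3 and fell by 1.40 ± 0.25 (SE) on the log2 scale (limma adjusted p = 0.0172). Taf4b, a subunit of the general transcription factor TFIID, measured 10.76, 10.97 and 10.68 in controls 1 to 3 and 9.39, 10.29 and 9.12 in 2954K 1 to 3 and fell by 1.20 ± 0.24 (SE) on the log2 scale (limma adjusted p = 0.0289). In Glb1l3 and Taf4b, 2954K 2 lay between the controls and the other exposed arrays. Pdzph1, a protein with PDZ domains, measured 12.06, 11.96 and 12.00 in controls 1 to 3 and 10.88, 11.21 and 11.21 in 2954K 1 to 3 and fell by 0.90 ± 0.11 (SE) on the log2 scale (limma adjusted p = 8.43e-04). Dleu7 lost its call in 3 of the 9 leave-one-out fits (limma adjusted p up to 0.128 without control 2), Glb1l3 in 3 (up to 0.0951 without 2954K 3) and Taf4b in 7 (up to 0.145 without control 2). Dleu7 (adjusted p = 0.102), Glb1l3 (adjusted p = 0.0731) and Taf4b (adjusted p = 0.165) did not pass in limma with the 3′ minus 5′ covariate.

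**Figure D4:**
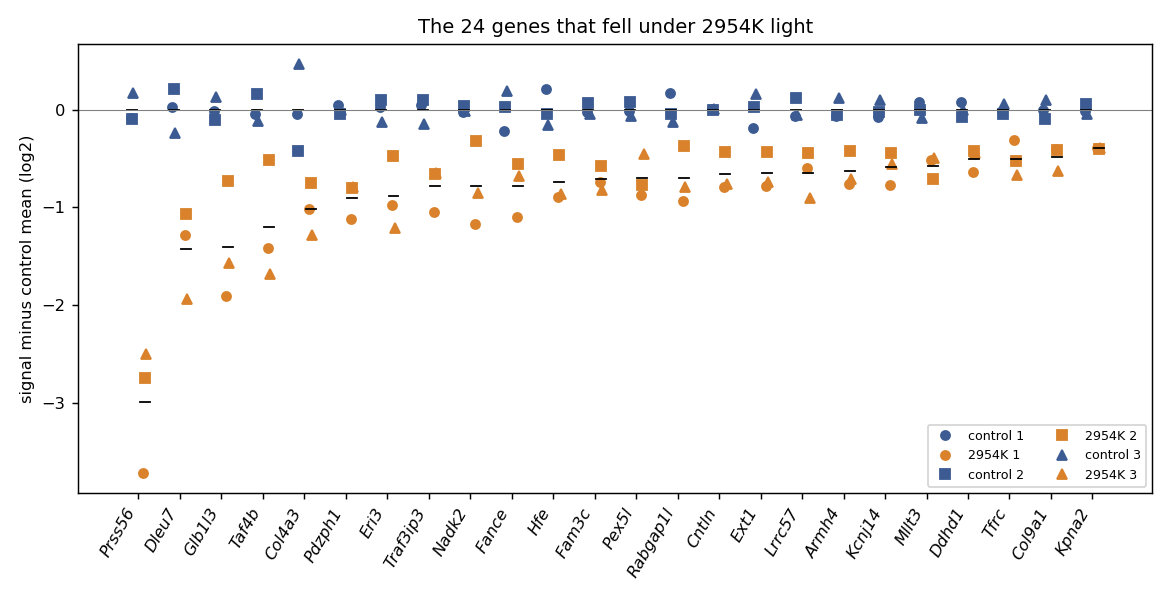
Log2 signal of the 24 fallen genes minus the control mean of the gene, per array, ordered by the size of the fall, with controls in blue, 2954K arrays in orange and black lines for the group means. The 2954K 2 array (square) is the exposed array nearest to the controls for 16 of the 24 genes.

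Collagens of basement membrane and of vitreous and cartilage fibres were among the falls. Col4a3, a chain of basement membrane collagen, measured 9.97, 9.59 and 10.47 in controls 1 to 3 and 8.99, 9.26 and 8.73 in 2954K 1 to 3 and fell by 1.02 ± 0.22 (SE) on the log2 scale (limma adjusted p = 0.0465), with the highest value on control 3. Col9a1, a chain of fibril-associated collagen, measured 11.77, 11.66 and 11.86 in controls 1 to 3 and 11.37, 11.35 and 11.14 in 2954K 1 to 3 and fell by 0.48 ± 0.10 (SE) on the log2 scale (limma adjusted p = 0.0417). Ext1, which builds heparan sulphate chains, measured 10.50, 10.71 and 10.85 in controls 1 to 3 and 9.90, 10.26 and 9.95 in 2954K 1 to 3 and fell by 0.65 ± 0.13 (SE) on the log2 scale (limma adjusted p = 0.0289). Control 3 and 2954K 3 were the arrays of this comparison with high lens signal. Without them the limma adjusted p was 0.266 for Col4a3, 0.268 for Col9a1 and 0.214 for Ext1. That fit kept 7378K 3, which also had lens signal. Col4a3 lost its call in 7 of the 9 leave-one-out fits (limma adjusted p up to 0.204 without 2954K 3), Col9a1 in 7 (up to 0.158 without 2954K 3) and Ext1 in 7 (up to 0.136 without control 2). Col4a3 (adjusted p = 0.173), Col9a1 (adjusted p = 0.0731) and Ext1 (adjusted p = 0.13) did not pass in limma with the 3′ minus 5′ covariate.

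Several fallen genes act in nuclear import, metabolism and trafficking. Kpna2, an importin alpha, measured 13.42, 13.50 and 13.40 in controls 1 to 3 and 13.05, 13.03 and 13.05 in 2954K 1 to 3, and it fell by 0.40 ± 0.09 (SE) on the log2 scale (limma adjusted p = 0.0488). Fam3c, a secreted protein of the retina, measured 13.04, 13.12 and 13.02 in controls 1 to 3 and 12.32, 12.48 and 12.24 in 2954K 1 to 3 and fell by 0.71 ± 0.09 (SE) on the log2 scale (limma adjusted p = 0.00165). Nadk2, the mitochondrial NAD kinase, measured 12.85, 12.92 and 12.87 in controls 1 to 3 and 11.71, 12.56 and 12.03 in 2954K 1 to 3 and fell by 0.78 ± 0.17 (SE) on the log2 scale (limma adjusted p = 0.044). Its 2954K 2 value lay 0.3 below the lowest control and its 2954K 1 value more than 1 below. Pex5l, which steers HCN channels, measured 12.30, 12.39 and 12.25 in controls 1 to 3 and 11.44, 11.54 and 11.86 in 2954K 1 to 3 and fell by 0.70 ± 0.12 (SE) on the log2 scale (limma adjusted p = 0.0112). The 3 other probe sets of Pex5l, all with a mean above the filter, differed by 0.05, 0.02 and -1.39. Traf3ip3 measured 9.96, 10.01 and 9.77 in controls 1 to 3 and 8.87, 9.25 and 9.26 in 2954K 1 to 3 and fell by 0.79 ± 0.14 (SE) on the log2 scale (limma adjusted p = 0.0199). Eri3, an exonuclease, measured 10.90 ± 0.12 in the controls and 9.93, 10.43 and 9.69 in 2954K 1 to 3 (control mean ± SD, n = 3), and it fell by 0.89 ± 0.16 (SE) on the log2 scale (limma adjusted p = 0.0198). Kpna2 lost its call in 8 of the 9 leave-one-out fits (limma adjusted p up to 0.277 without control 2), Nadk2 in 8 (up to 0.187 without control 2), Pex5l in 2 (up to 0.074 without control 2) and Traf3ip3 in 2 (up to 0.117 without control 2). Eri3 lost its call in 4 of the 9 leave-one-out fits (limma adjusted p up to 0.107 without control 2). Kpna2 (adjusted p = 0.0731), Nadk2 (adjusted p = 0.0628), Pex5l (adjusted p = 0.0557), Traf3ip3 (adjusted p = 0.0976) and Eri3 (adjusted p = 0.108) did not pass in limma with the 3′ minus 5′ covariate.

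The other 7 falls were below 1 on the log2 scale. Fance, of the Fanconi anaemia DNA repair complex, measured 9.49, 9.74 and 9.90 in controls 1 to 3 and 8.62, 9.15 and 9.04 in 2954K 1 to 3 and fell by 0.78 ± 0.17 (SE) on the log2 scale (limma adjusted p = 0.0453). Rabgap1l, an activator of Rab GTPases, measured 11.18, 10.96 and 10.87 in controls 1 to 3 and 10.06, 10.63 and 10.21 in 2954K 1 to 3 and fell by 0.70 ± 0.15 (SE) on the log2 scale (limma adjusted p = 0.0406). Cntln, the centrosomal protein centlein, was at 10.50, 10.49 and 10.50 in controls 1 to 3 and 9.71, 10.06 and 9.74 in 2954K 1 to 3, and it fell by 0.66 ± 0.12 (SE) on the log2 scale (limma adjusted p = 0.0199). Its controls lay within 0.02 of each other. Lrrc57, Armh4, Mllt3, a chromatin reader, and Ddhd1, a phospholipase, fell by 0.65, 0.63, 0.57 and 0.50 on the log2 scale (limma adjusted p = 0.0364, 0.0441, 0.0378 and 0.0256). Fance lost its call in 8 of the 9 leave-one-out fits (limma adjusted p up to 0.195 without control 2), Rabgap1l in 7 (up to 0.193 without control 1), Cntln in 3 (up to 0.0948 without control 1) and Lrrc57 in 8 (up to 0.197 without control 2). Armh4 lost its call in 8 of the 9 leave-one-out fits (limma adjusted p up to 0.164 without 2954K 3), Mllt3 in 7 (up to 0.175 without control 1) and Ddhd1 in 7 (up to 0.144 without control 1). Fance (adjusted p = 0.208), Rabgap1l (adjusted p = 0.171), Cntln (adjusted p = 0.0896), Lrrc57 (adjusted p = 0.127), Armh4 (adjusted p = 0.19) and Mllt3 (adjusted p = 0.0582) did not pass in limma with the 3′ minus 5′ covariate. Ddhd1 (adjusted p = 0.0848) did not pass in limma with the 3′ minus 5′ covariate.

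Rises of signalling and trafficking genes were mostly below 2-fold. Lamtor5, a subunit of the Ragulator complex that recruits mTORC1 to lysosomes, measured 12.48, 12.32 and 12.17 in controls 1 to 3 and 13.17, 13.07 and 12.87 in 2954K 1 to 3 and rose 1.64-fold (log2 difference 0.71 ± 0.11 SE, limma adjusted p = 0.00703). Flcn, folliculin, acts on the same Rag GTPases and rose 1.56-fold (log2 difference 0.64 ± 0.11 SE, limma adjusted p = 0.011). The 2 other probe sets of Flcn, both with a mean above the filter, differed by only 0.16 and -0.03. Sec22c and Lman1, of transport between endoplasmic reticulum and Golgi, measured 10.08, 9.71 and 9.71 in the controls and 11.34, 11.06 and 11.23 under 2954K light and 11.83, 11.82 and 11.97 in the controls and 12.51, 12.26 and 12.56 under 2954K light. Sec22c rose 2.59-fold (log2 difference 1.37 ± 0.13 SE, limma adjusted p = 1.83e-04), and Lman1 rose 1.49-fold (log2 difference 0.57 ± 0.10 SE, limma adjusted p = 0.0184). Zfyve28, an endosomal regulator of the epidermal growth factor receptor, measured 10.41, 10.38 and 10.24 in controls 1 to 3 and 11.23, 11.27 and 11.24 in 2954K 1 to 3 and rose 1.87-fold (log2 difference 0.90 ± 0.09 SE, limma adjusted p = 2.45e-04). Gna14, a G protein alpha subunit, rose 2.30-fold (log2 difference 1.20 ± 0.25 SE, limma adjusted p = 0.0388). Pkig, an inhibitor of protein kinase A, and Akap12, an anchoring protein of that kinase, rose 1.52-fold and 1.62-fold (limma adjusted p = 0.0138 and 0.0101). The docking protein gene Gab1 and the phosphatase genes Dusp8 and Ptp4a3 rose 1.75-fold, 1.45-fold and 1.55-fold (limma adjusted p = 0.0241, 0.0241 and 0.0101). Pmvk, a kinase of sterol synthesis, measured 9.79, 9.70 and 9.92 in controls 1 to 3 and 10.66, 10.68 and 10.94 in 2954K 1 to 3 and rose 1.94-fold (log2 difference 0.95 ± 0.12 SE, limma adjusted p = 0.00151), the only call among 22 genes of cholesterol synthesis and transport, whose median was -0.04. Lamtor5 (adjusted p = 0.0511) did not pass in limma with the 6 arrays of control and 2954K alone. Flcn lost its call in 1 of the 9 leave-one-out fits (limma adjusted p up to 0.0723 without control 1), Lman1 in 3 (up to 0.11 without control 2), Gna14 in 6 (up to 0.179 without 2954K 3) and Pkig in 2 (up to 0.077 without control 1). Akap12 lost its call in 2 of the 9 leave-one-out fits (limma adjusted p up to 0.0705 without control 2), Gab1 in 6 (up to 0.117 without control 2), Dusp8 in 7 (up to 0.105 without 2954K 3) and Ptp4a3 in 3 (up to 0.0761 without control 2). Lman1 (adjusted p = 0.064), Gna14 (adjusted p = 0.0628), Akap12 (adjusted p = 0.051), Gab1 (adjusted p = 0.12) and Dusp8 (adjusted p = 0.0864) did not pass in limma with the 3′ minus 5′ covariate.

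The remaining rises had no common role. Those with a limma adjusted p under 0.02 were S100a16, Mindy2, Dnttip2, Skap2, Ankrd29 and Med9os, of which S100a16, a calcium-binding protein, rose 2.08-fold and Mindy2, a deubiquitinase, 1.41-fold. Between 0.02 and 0.03 lay Cryzl2, Vps13c, Gckr, Zfp809, Naa35, Ipo5, S100a1 and Amacr, with rises from 1.44-fold for the importin gene Ipo5 to 2.91-fold for Cryzl2. Above 0.03 were 2900060N12Rik, Olfm2, Shisa5, Slc35e4, Syngr3, Tsc22d4, Dcps, Nme2, Extl2, Rtkn2, Mrps25, Mkln1 and Atp13a3, from 1.43-fold for the transporter gene Atp13a3 to 2.96-fold for 2900060N12Rik. Of these 27 genes, S100a16 alone kept its call in all 9 leave-one-out fits. For the other 26 the highest limma adjusted p over those fits ran from 0.0518 for Dnttip2 (without control 2) to 0.244 for Atp13a3 (without control 2).

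Many pathways gave 0 calls with all arrays. For glycolysis and lactate, 0 of 21 genes were called with a median of -0.13. The hexokinase genes lay at opposite sides of their controls, Hk1 at 13.04, 12.90 and 12.99 in the controls and 13.77, 13.21 and 13.46 under 2954K light and Hk2 at 12.54, 12.52 and 12.74 in the controls and 12.34, 12.33 and 12.11 under 2954K light, without a call (limma adjusted p = 0.103 and 0.151). For the circadian clock 0 of 20 genes were called, and the output gene Dbp differed by 0.35 on the log2 scale (95% interval 0.11 to 0.59, limma adjusted p = 0.191). For the unfolded protein and integrated stress response 0 of 25 were called. Of its differences 21 were above 0, with a median of 0.20 against 0.01 over all genes tested. Its sensor gene Ern1 measured 9.98, 9.95 and 9.80 in the controls and 10.63, 10.36 and 10.31 under 2954K light (limma adjusted p = 0.0623), and the factor gene Xbp1 11.96, 12.02 and 11.89 in the controls and 12.59, 12.21 and 12.53 under 2954K light (adjusted p = 0.0831). The respiratory chain, proteasome, ribosome, splicing and chromatin lists also held 0 calls, with medians from -0.04 to 0.06. Bipolar, amacrine and horizontal cell lists held 0 calls among 20 and 17 genes, and the only call among 17 ganglion cell genes was Atf3, the stress factor described above. Of 24 vascular genes 0 were called. Without 2954K 2, where 895 genes were called in all, 5 genes of the unfolded protein and integrated stress response rose (Calr, Chac1, Ern1, Hspa5 and Xbp1) and 0 fell. In that fit Hk1 rose and Hk2 fell among glycolysis genes, Csnk1d and Dbp rose among clock genes, and the respiratory chain and proteasome lists held 3 rises each. The remaining 2954K arrays there lay above every control in the 3′ minus 5′ difference, whose part was not tested.

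**Figure D5:**
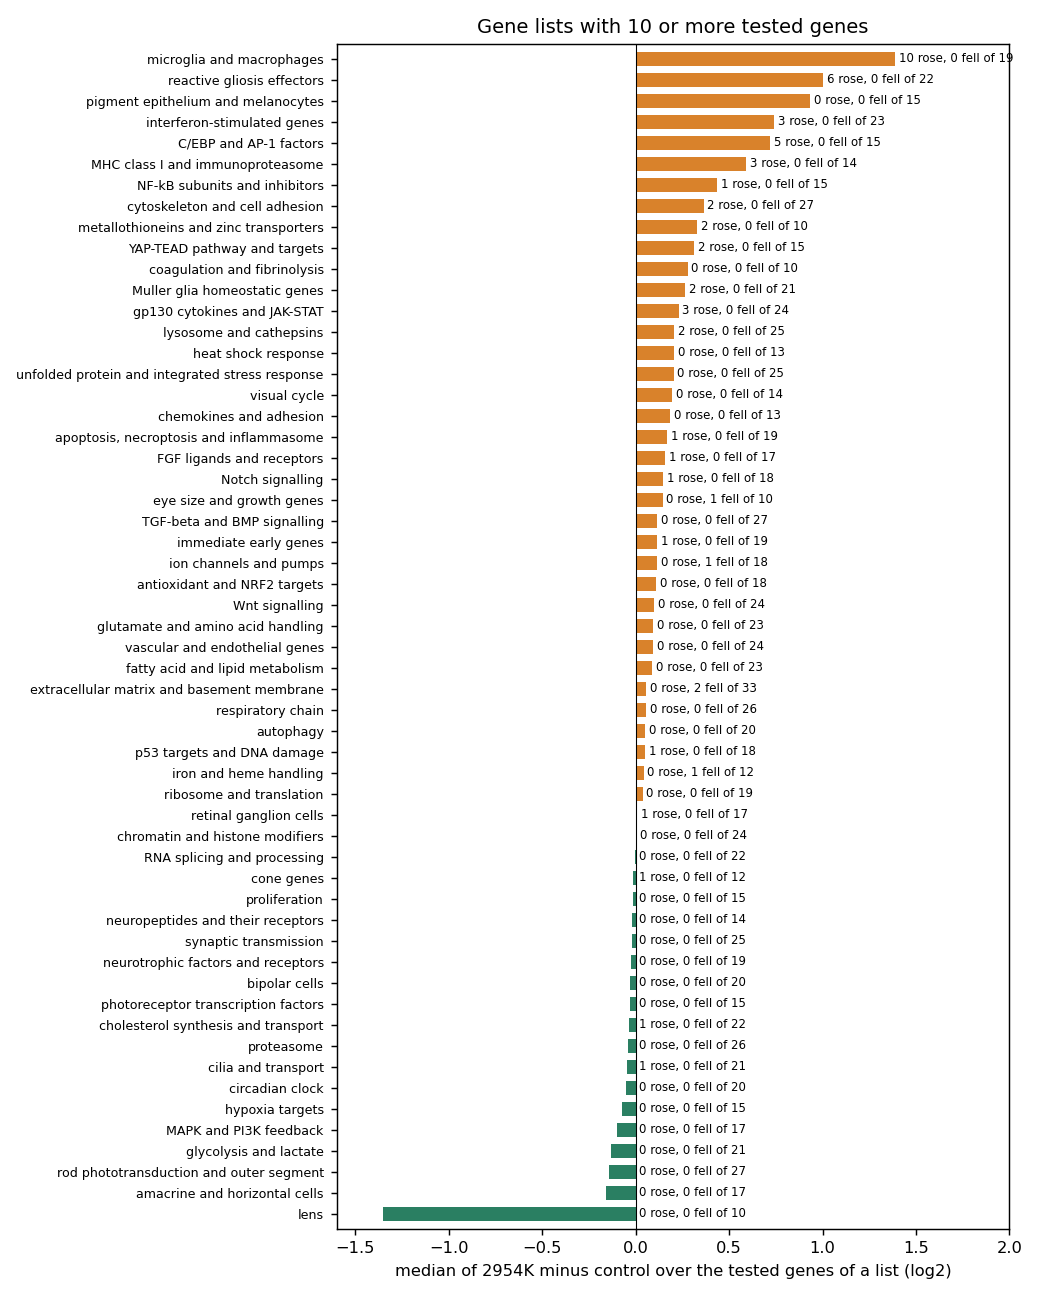
Bars give the median log2 difference of 2954K minus control over the tested genes of each list with 10 or more tested genes, and the text beside each bar the number of risen, fallen and tested genes. Microglial and gliosis lists have the highest medians, and the lens list, whose signal was high on control 3 and 2954K 3, has the lowest with 0 of 10 genes called.

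Other probe sets of the same genes did not always follow the one analysed. With the probe sets of each gene averaged, 151 of the 156 genes were tested and 74 lost their call, among them 16 that were called in all 9 leave-one-out fits. Besides Osmr these were Ift57 (difference 0.25, limma adjusted p = 0.725), Marveld1 (0.33, 0.753), Rnf144b (0.45, 0.375), Rfx2 (0.68, 0.517), Kremen1 (0.97, 0.134) and Gadd45b (1.03, 0.0597), which moved by more than 1.5 times. Myo5b, Agtpbp1, Btc, Lyz1, Cd44, Ahr, Mt1, Bub1b and Tgm2 kept more of their difference, with limma adjusted p from 0.0578 for Tgm2 to 0.508 for Agtpbp1. Of the 156 called genes 80 had at least 1 other probe set above the filter, and for 67 of these all lay in the same direction. Of all 127 such probe sets, 110 did. Stat3 had 3 others, with differences of 1.36, 1.63 and -0.68. Marveld1 had 2, at -0.42 and -0.33 against a rise of 1.14, and Dnttip2 had 1, at -0.51 against 0.77. Naa35 had 4, at -0.87, -0.60, -0.32 and 0.44 against 0.55. The other probe set of Tsc22d4 lay at -0.31, and those of Rabgap1l, a fallen gene, at -0.79 and 0.74. Those of Ddhd1, also a fallen gene, lay at 0.05, -0.41 and -1.998. The others of the 13 genes with at least 1 opposite probe set above the filter were Pex5l, Flcn, Rnf144b, Slc35e4, Extl2 and Mkln1.

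The warm and the cold light were set against each other in the same model. By limma with Benjamini-Hochberg adjustment 0 of 12765 genes differed between 7378K and 2954K (smallest adjusted p = 0.978), and 519 had an unadjusted p under 0.05, among them 20 of the 156 genes called for 2954K. The 3′ minus 5′ difference was 1.80, 1.67 and 1.55 in 7378K 1 to 3, against 2.78, 0.21 and 1.05 in 2954K 1 to 3. Without 2954K 1, 29 genes were called between the lights, of which 0 were among the 156, and the 2 warm arrays left were both below the cold arrays in that measure, whose part in these calls was not tested. Of the 20 genes, Prtg measured 9.34, 9.41 and 9.83 under 2954K and 10.24, 10.20 and 10.20 under 7378K light, a difference of 0.69. Fam3c measured 12.32, 12.48 and 12.24 and 11.93, 12.00 and 11.89, a difference of -0.41, and Glb1l3 8.97, 10.16 and 9.31 and 8.79, 8.22 and 8.49, a difference of -0.98. These 3 had the smallest unadjusted p of the 20. All 15 risen genes among the 20 were higher under 7378K light, and of the 5 fallen genes 4 were lower and 1 was higher. Over all 156 genes, 102 of the 132 risen genes were higher under 7378K light and 19 of the 24 fallen genes were lower, a count with no test. The share of all tested genes that were higher under 7378K light is not given, so these counts have no background to be read against. Both lights share the same 3 control arrays. A p that misses the threshold does not show that both lights act alike.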

How the data were processed

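Retinal RNA of 9 pools was measured on Affymetrix mouse genome arrays. Per the labels' protocols, the neurosensory layer was separated from the pigment epithelium, extraction used mirVana PARIS, integrity was read on a Bioanalyzer, and biotin labelling used a GeneChip 3' IVT PLUS kit. The deposited log2 values are MAS5-type signals per probe set. Per the submitters' processing notes, MAS5 and affy were used, with versions and roles not given in the sources used here. Back on the linear scale each deposited array had a 2% trimmed mean of 500. Detection calls, integrity values and scan dates were not analysed here, so signal over background is not known per probe set, and precision is limited by the number of arrays.

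Of 45101 probe sets (64 of them controls), 34945 had 1 gene symbol in the platform's annotation, 932 several and 9160 none. Of the 34945, 34741 matched RefSeq (GRCm38.p6) by gene identifier. For each of 18193 genes, the brightest of its single-symbol probe sets (by the mean of the 9 arrays) was used. The 12765 genes at or above the 40th percentile of probe set means (5.91) were tested in R 4.3.3 with the package limma, version 3.58.1 (lmFit, contrasts.fit and a trended eBayes), after reading with the package data.table (version 1.17.8). All 9 arrays entered the fit (6 residual degrees of freedom), and Benjamini-Hochberg adjustment ran over all tested genes, with calls at an adjusted p under 0.05. Where 1 group mean lay below the filter, the fold is a bound against it. The 3′ minus 5′ difference was the log2 mean over the Gapdh and beta-actin control probe sets.

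In data simulated for 2954K against control (12765 genes, 200 changed, 10 runs), 19.4% of changes of 0.5 on the log2 scale were called, 80.6% of 1, 71.0% of -1 and 93.8% of 2, and 5.29% of the calls were false. The simulated noise was independent for every gene and array. It held no shared array effects, such as those of lens content or the 3′ minus 5′ difference, so these rates may not hold for the measured arrays. Promoter windows (RefSeq) existed for 98 of 132 risen and 18 of 24 fallen genes. Alternatives covered the normalization, the filter, a floor, the probe set rule, the arrays fitted, the variance model, the replicate number as a block, the 3′ minus 5′ covariate and leaving out arrays. The named genes were all called genes, per-array values being given for the largest and brightest and for those described by role, and, from each list described, the called members, up to 4 others with the smallest p and cell type markers. The comparison and the 63 gene lists (1307 genes, 1048 of them tested) were chosen with earlier results of these data known. Figures were drawn with matplotlib 3.10.9.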

Additional observations from a re-analysis of the deposited data

How the results depend on the processing

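The count of 156 changed genes (132 risen, 24 fallen) stayed within 1.5-fold under quantile normalization (169), median centring (136), no filter (141), a filter at the 60th percentile (149) and a floor (163). It was 82 (68 risen, 14 fallen) with all probe sets of a gene averaged, 68 (64 and 4) with the 6 arrays of control and 2954K alone, 101 (94 and 7) without the intensity trend, 102 (92 and 10) with the 3′ minus 5′ covariate and 103 (96 and 7) without the third arrays of control and 2954K together. Median centring left 12 fallen genes. Over the 9 fits that left out 1 array, 79 to 895 genes changed, 75 to 587 rose and 4 to 308 fell, and between the lights 0 to 29 genes differed. The 29 came without 2954K 1, and 0 were called between the lights under the other alternatives run. Of the 156 genes 43 kept their call under every alternative, and 56 lost it in 5 or more of the 9 fits. With the mean of probe sets the sign turned for Eri3 (0.016), Naa35 (-0.17), Dusp8 (-0.68), Gab1 (-0.23) and Ext1 (0.46), all called above, and for Il6st (-0.27), Hk1 (-0.50) and Fgf9 (-0.036), which were not. Deviations from the group means correlated at 0.086, 0.258 and 0.332 between the control and 2954K arrays numbered 1 to 3. Between arrays of unlike number the correlations ran from -0.265 to 0.092. Lens signal was also raised on the third array of every group. The labels do not say what arrays of 1 number share, and the main fit did not take them as pairs. With the replicate number as a block, 163 genes changed (141 risen, 22 fallen), 139 of them among the 156.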
